A study of Homo sapiens with 8 samples.

Results

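Interferon-stimulated genes are the genes that cells switch on when they receive an interferon signal. The set described here holds 42 of them, picked out by gene symbol, a rule that uses no measured value. The list was nevertheless chosen with earlier results of these data known. All 42 members were present in the deposited expression table, which lists 19718 protein-coding genes. The cells were HEL92.1.7, a human erythroleukemia line that the labels class as secondary acute myeloid leukemia and that is known to carry an activating JAK2 mutation. Its derivative HEL OTX P/R is called persister resistant to OTX015, an inhibitor of the BET bromodomain proteins that read acetylated histones and support transcription. The study asked how the inhibitor changes the transcriptome of both lines. The 4 groups were P/R cells given 1000 nM OTX015 for 8 h, untreated P/R cells, parental cells given the same dose for the same time, and untreated parental cells. Untreated cells are the reference for the drug, as the labels name no vehicle. Each group had 2 libraries, which the design text describes as biologic replicates treated independently, so n = 2 per group holds for every value below. No interferon was added in any group, and the resistant derivative is 1 population, so its differences from the parental line cannot be told apart from those of 1 selected lineage.

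Type I and type III interferons bind their receptors at the cell surface and activate the kinases JAK1 and TYK2. These phosphorylate signal factors such as STAT2, which acts with IRF9 in the factor ISGF3, and ISGF3 binds the interferon-stimulated response element in the promoters of the target genes. The products of those genes block viral entry, translation and replication, sense viral RNA, or attach the ubiquitin-like protein ISG15 to other proteins. Many of them are also expressed at a low or moderate level without added interferon, and that basal level is what these libraries report.

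Expression is given in FPKM, fragments scaled by transcript length and library size, which the authors had brought to the same distribution in all 8 libraries. The read depth behind the values is unknown. Pearson's r over all tested genes was 0.996 to 0.997 between libraries of a group and 0.959 to 0.985 between libraries of different groups. All 10 erythroid and megakaryocyte markers of HEL cells were expressed, HBG2 reaching 9651 FPKM, but some differed by line. Under OTX015, 2 were higher and 1 lower in P/R cells, and untreated 3 were higher and 4 lower (limma, adjusted p under 0.05). Of all genes, 24.4% and 23.5% passed in the same order. PF4 averaged 43.6 FPKM in P/R cells under OTX015 and 48.9 untreated, against 1.47 and 2.33 in the matching parental cells. Monocyte and plasmacytoid dendritic markers, which would mark professional interferon producers, were under 0.3 FPKM in every library for 6 of 6 genes. CD3D and MS4A1, the defining markers of T and B lymphocytes, were listed at 0 in every library. The summed level of the 7 lymphocyte markers, of which CD2, CD79A and NKG7 were high enough to test, nevertheless differed between groups. It was 2.85 to 2.97 FPKM in P/R cells under OTX015, 5.27 to 5.57 in untreated P/R cells, 6.72 to 6.75 in parental cells under OTX015 and 15.4 to 15.9 in untreated parental cells, and its part in the results below was not tested. The epithelial keratin KRT8 averaged 21.7 FPKM in P/R cells under OTX015 and 15.8 in untreated P/R cells, against 3.95 and 3.93 in the matching parental cells. In bulk RNA of this kind, fewer cells of a type and less RNA per cell cannot be told apart.

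The members spanned the whole range from silent to strongly expressed. Of the 42, 29 reached at least 1 FPKM in at least 2 of the 8 libraries and were tested, 22 averaged 5 FPKM or more in some group, and 11 averaged 20 FPKM or more. The other 13 were too low to test: IFI44L, IFIT1, IFIT2, IFIT5, MX1, OAS1, OAS2, OASL, DHX58, BST2, ISG20, XAF1 and SAMD9L. Their highest single library ran from 0.0263 FPKM for OASL, listed at 0 in 6 libraries, to 1.31 FPKM for BST2, which encodes the virion-retaining protein tetherin. Genes that are classic reporters of interferon exposure were in this low set: MX1, a dynamin-like GTPase, did not exceed 0.968 FPKM, IFIT1, which binds viral RNA caps, 0.978 FPKM, and IFI44L 0.160 FPKM. MX1 was uneven, at 0.968 and 0.209 FPKM in untreated P/R cells.

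At the other end stood the IFITM family, short membrane proteins that hinder fusion of viral and endosomal membranes. On the FPKM scale, which divides by transcript length, IFITM2 was the most abundant member, at 319 and 311 FPKM in P/R cells under OTX015, 329.7 and 356 in untreated P/R cells, 259.9 and 268 in parental cells under OTX015, and 304 and 283 in untreated parental cells. Next came IFITM1, IFITM3 and UBE2L6, the last an enzyme that conjugates ISG15. UBE2L6 had group means of 65.8, 81.5, 75.0 and 90.3 FPKM in the same order, IFITM1 of 66.7, 86.1, 57.1 and 82.7 FPKM, and IFITM3 of 73.3, 81.9, 55.2 and 63.9 FPKM. These 3 exchanged order between groups and have no fixed sequence. ADAR, IFI6, PLSCR1, ISG15, STAT2, MX2 and TRIM25 were the other members that reached 20 FPKM in some group. The IFITM genes are close in sequence and neighbours in the genome, and USP18 has near-identical copies, so reads could have been divided between copies and the levels of these 4 genes are less certain.

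**Figure D1:**
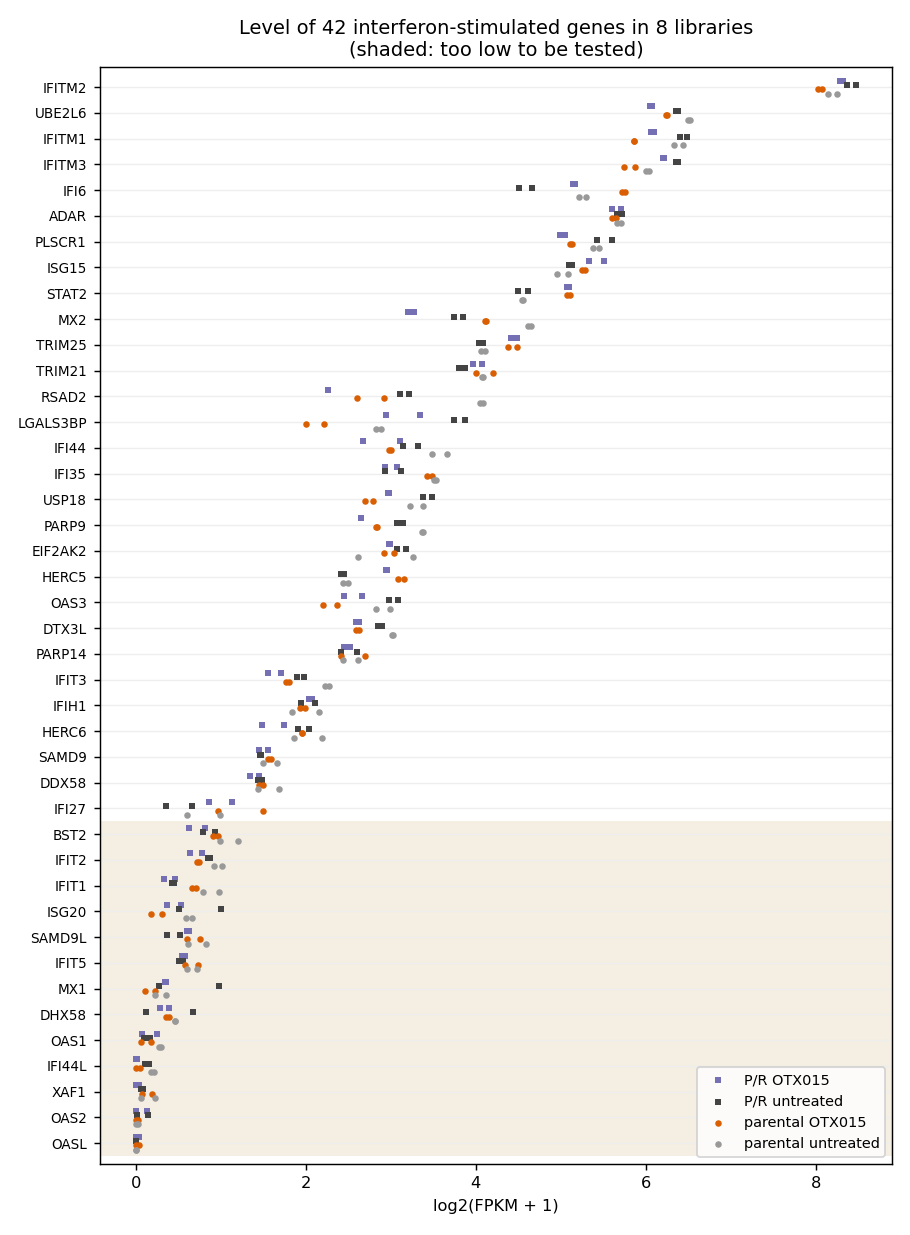
Level of all 42 interferon-stimulated genes as log2(FPKM + 1), 1 point per library, with squares for P/R cells and circles for parental cells, each under OTX015 or untreated, and shading over the 13 members too low to test. The members run from OASL, at 0.0263 FPKM or less in every library, to IFITM2, with means of 315 FPKM in treated P/R, 343 in untreated P/R, 264 in treated parental and 294 in untreated parental cells.

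The core of the response element lies close to the start of most of these genes. Promoters from RefSeq (build GRCh38.p14), covering 250 bases before to 50 bases after each annotated start, could be matched for 35 members. The core searched for was GAAANNGAAA, or TTTCNNTTTC on the other strand, with overlapping matches counted. It was present in 25 of the 35, or 71.4%, against 1195 of 27305 genes in the promoter table, or 4.38%. Among matched members it was found in 19 of 26 that were tested and in 6 of 9 that were too low to test, so expressed and near-silent members both carried it. The 7 members without an entry were IFIT2, DHX58, USP18, IFITM2, OAS2, OASL and MX2. Those with an entry and no core in the window were IFI35, OAS1, STAT2, DDX58, TRIM25, XAF1, SAMD9L, ADAR, UBE2L6 and HERC6. A match describes letters in the reference, and binding was not measured here.

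Of these, 4 promoters are printed because their genes carry the contrast described next: RSAD2 fell under the inhibitor, while HERC5, IFI6 and ISG15 rose, and each of the 4 holds the core. The sequences are the 250 bases before the start, read 5′ to 3′ along the gene, with the cores in capitals. RSAD2 lies at chr2:6877527-6877776 on the plus strand, HERC5 at chr4:88456869-88457118 on the plus strand, IFI6 at chr1:27672193-27672442 on the minus strand and ISG15 at chr1:1013247-1013496 on the plus strand.
RSAD2: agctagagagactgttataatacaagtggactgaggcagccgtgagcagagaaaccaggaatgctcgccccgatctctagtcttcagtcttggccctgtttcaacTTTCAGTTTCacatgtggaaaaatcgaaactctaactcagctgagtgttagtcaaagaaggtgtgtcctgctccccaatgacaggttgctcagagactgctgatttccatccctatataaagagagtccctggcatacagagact
HERC5: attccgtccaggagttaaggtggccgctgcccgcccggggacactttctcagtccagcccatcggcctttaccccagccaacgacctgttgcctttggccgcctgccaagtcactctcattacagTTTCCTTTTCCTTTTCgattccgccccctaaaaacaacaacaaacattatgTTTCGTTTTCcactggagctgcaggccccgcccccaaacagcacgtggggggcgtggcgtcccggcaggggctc
IFI6: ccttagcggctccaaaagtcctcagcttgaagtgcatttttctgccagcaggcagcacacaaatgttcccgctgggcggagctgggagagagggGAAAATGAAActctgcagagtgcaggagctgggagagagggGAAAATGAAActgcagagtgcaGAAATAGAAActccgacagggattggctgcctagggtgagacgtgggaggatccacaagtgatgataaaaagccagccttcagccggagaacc
ISG15: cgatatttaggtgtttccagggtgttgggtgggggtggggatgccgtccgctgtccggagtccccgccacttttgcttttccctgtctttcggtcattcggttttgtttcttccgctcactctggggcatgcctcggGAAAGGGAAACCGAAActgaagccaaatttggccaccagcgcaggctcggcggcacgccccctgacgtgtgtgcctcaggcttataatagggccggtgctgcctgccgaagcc
RSAD2 holds 1 core, beginning at position -145 from the start shown. Its other annotated promoter, chr2:6865635-6865934, has no match, and PARP9 likewise has a second annotated promoter with no match. HERC5 holds 3, of which 2 overlap, at positions -125, -119 and -74. IFI6 holds 3 at positions -156, -115 and -93, the first and second of them in a short stretch that is repeated. ISG15 holds 2 that overlap, at -113 and -107. PARP9 and DTX3L, which are transcribed away from each other, share 1 core between them at chr3:122564332-122564341, shown in capitals within chr3:122564322-122564351, read along PARP9 on the minus strand.
PARP9 and DTX3L: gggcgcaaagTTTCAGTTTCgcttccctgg

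OTX015 lowered more members than it raised in both lines, and a smaller group moved the other way. In P/R cells 12 of the 29 tested members fell and 5 rose, and 12 did not pass (limma on log2(FPKM + 1), Benjamini-Hochberg adjusted p under 0.05 over 11255 genes). In parental cells 14 fell, 5 rose and 10 did not pass. The background was high, since 44.3% of all tested genes passed in P/R cells and 50.4% in parental cells, against 58.6% and 65.5% of the members. Downward calls made up 41.4% of members in P/R cells, where 21.8% of all genes fell, and 48.3% in parental cells, where 24.7% fell. Upward calls made up 17.2% of members in either line, against 22.5% of all genes in P/R cells and 25.7% in parental cells. The median log2 difference over the tested members was -0.14 in P/R cells and -0.09 in parental cells, against 0.01 and 0.02 over all genes. A fitted log2 difference of at least 1 was reached by no member in P/R cells, where 2.79% of all genes passed with such a difference, and by RSAD2 in parental cells, where 4.32% did.

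Most members that passed did so in both lines. Called lower in both were RSAD2, LGALS3BP, OAS3, USP18, PARP9, MX2, IFITM1, IFIT3, DTX3L, PLSCR1, UBE2L6 and IFITM3, which makes 12 of 29, against 2051 of the 11255 genes. Called higher in both were ISG15, IFI6, STAT2, TRIM25 and HERC5, which makes 5 of 29, against 2089 of the 11255 genes. IFI44 and IFITM2 passed in parental cells and not in P/R cells, and 10 members passed in neither line. The sign was shared by 25 of 29 members, or 86.2%, against 84.8% of all tested genes, and the responses of the 2 lines, which rest on separate libraries, had Pearson's r = 0.953 over the members and 0.891 over all genes. The libraries of the 2 conditions did not overlap for 23 members in P/R cells (79.3%, against 72.7% of all genes) and for 21 in parental cells (72.4%, against 75.6%).

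**Figure D2:**
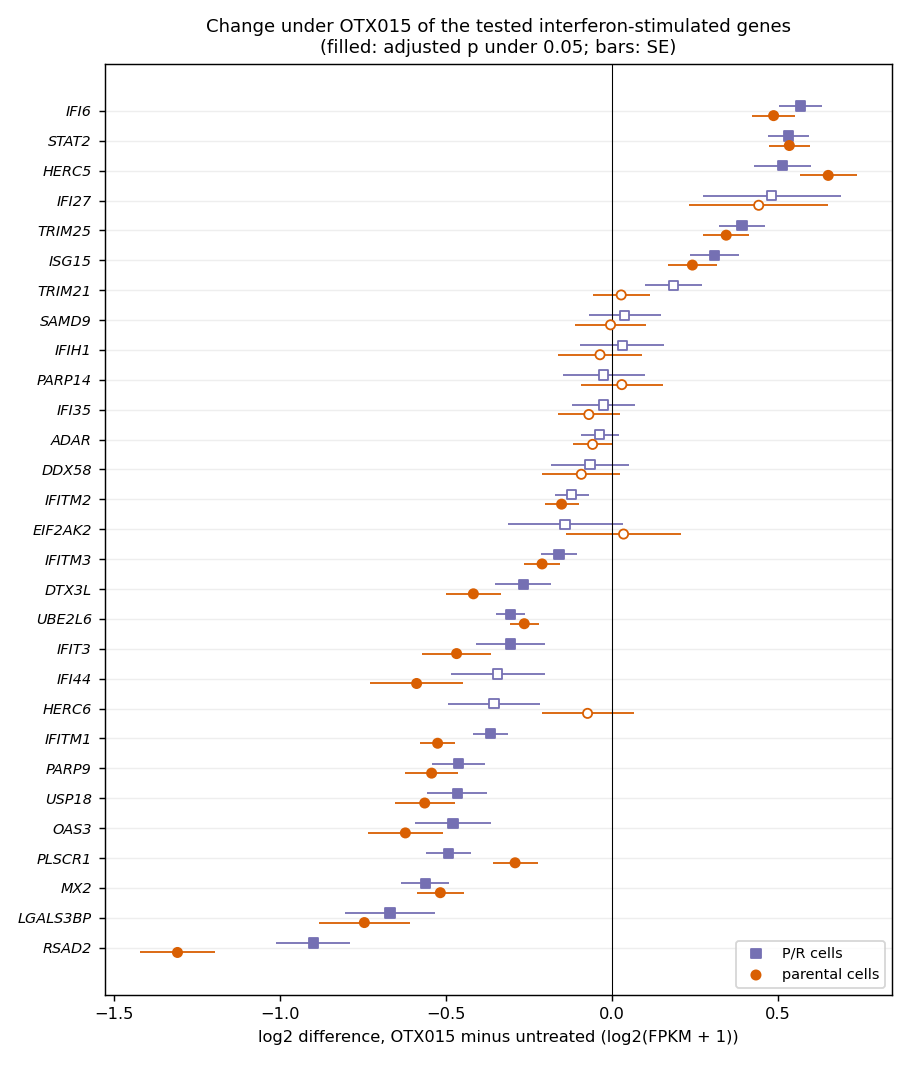
Log2 difference, OTX015 minus untreated, of the 29 tested members, with squares for P/R cells and circles for parental cells bars for 1 SE, and filled points where the adjusted p is under 0.05. Sorted by the P/R value, they run from RSAD2, at -0.90 in P/R cells and -1.31 in parental cells, to IFI6, at 0.57 and 0.49.

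RSAD2 encodes viperin, a radical SAM enzyme that makes a chain-terminating nucleotide, and it fell most. It stood at 3.80 and 3.81 FPKM in P/R cells under OTX015, against 8.31 and 7.62 in untreated P/R cells, and at 6.58 and 5.06 in parental cells under OTX015, against 15.6 and 15.96 in untreated parental cells. Every treated library lay below both untreated libraries of its line, and the treated parental libraries lay below the untreated P/R libraries. The log2 difference was -0.90 ± 0.11 (SE; limma, adjusted p = 0.000233) in P/R cells and -1.31 ± 0.11 (adjusted p = 2.04e-05) in parental cells.

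OAS3, a synthetase of the oligoadenylates that activate RNase L, was the one OAS gene expressed well enough to test. Its libraries held 5.31 and 4.48 FPKM in P/R cells under OTX015, against 6.90 and 7.51 untreated, and 3.59 and 4.17 FPKM in parental cells under OTX015, against 6.95 and 6.07 untreated. Treated and untreated libraries did not overlap in either line. OAS3 fell by 0.48 ± 0.11 on the log2 scale in P/R cells (limma, adjusted p = 0.00793) and by 0.62 ± 0.11 in parental cells (adjusted p = 0.00166). The P/R call was lost without untreated P/R library 2 or treated P/R library 2, at adjusted p = 0.0546 to 0.0562.

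MX2, a GTPase that restricts retroviral nuclear entry, was well expressed although MX1 was not. Treated P/R libraries held 8.66 and 8.21 FPKM, against 13.4 and 12.5 FPKM in untreated P/R libraries. Treated parental libraries held 16.4 and 16.2 FPKM, against 24.1 and 23.5 FPKM untreated. Drug and line separated all 4 groups, so that treated P/R cells were the lowest and untreated parental cells the highest. MX2 fell by 0.56 ± 0.07 in P/R cells (limma, adjusted p = 0.000267) and by 0.52 ± 0.07 in parental cells (adjusted p = 0.000339), both on the log2 scale.

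Within the IFIT and IFITM families every passing member fell. IFIT3, a partner of IFIT1 in RNA binding and the only IFIT gene tested, held 2.28 and 1.93 FPKM in P/R cells under OTX015, against 2.95 and 2.72 untreated, and 2.49 and 2.41 FPKM in parental cells under OTX015, against 3.70 and 3.85 untreated. It was lower in both treated libraries of each line, by -0.31 ± 0.10 in P/R cells (limma, adjusted p = 0.0388) and -0.47 ± 0.10 in parental cells (adjusted p = 0.00477). The P/R call was lost without untreated P/R library 1 or 2, treated P/R library 2 or treated parental library 1 or 2, at adjusted p = 0.054 to 0.183. IFITM1 held 67.4 and 65.9 FPKM in treated P/R cells, against 83.7 and 88.6 untreated, and 57.2 and 57.0 FPKM in treated parental cells, against 85.5 and 79.8 untreated. That is a log2 difference of -0.36 ± 0.05 in P/R cells (limma, adjusted p = 0.000575) and -0.52 ± 0.05 in parental cells (adjusted p = 5.22e-05). IFITM3 fell by 0.16 in P/R cells (adjusted p = 0.0394) and by 0.21 in parental cells (adjusted p = 0.0103). Its P/R call was lost without any 1 of the 4 P/R libraries or either untreated parental library, at adjusted p = 0.0511 to 0.162, and its parental call without untreated or treated parental library 1, at 0.0532 to 0.0804. IFITM2 was at -0.12 in P/R cells, which did not pass (adjusted p = 0.0829), and fell by 0.15 in parental cells (adjusted p = 0.0338), a call lost without untreated parental library 1 or either treated parental library, at 0.0617 to 0.208.

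Of the 7 tested genes of the ISG15 system and the TRIM ligases, 3 rose, 2 fell and 2 did not pass in either line. ISG15 itself, the ligase HERC5 and the ubiquitin ligase TRIM25 rose, whereas UBE2L6, the conjugating enzyme, and USP18, the protease that removes ISG15 and also holds back the type I receptor, fell. HERC5 stood at 6.74 and 6.72 FPKM in P/R cells under OTX015, against 4.34 and 4.48 untreated, and at 7.51 and 7.92 FPKM in parental cells under OTX015, against 4.44 and 4.65 untreated. All treated libraries lay above all untreated ones, and the log2 difference was 0.51 ± 0.09 in P/R cells (limma, adjusted p = 0.00121) and 0.65 ± 0.09 in parental cells (adjusted p = 0.000249). USP18 went the other way, with 6.83 and 6.88 FPKM in treated P/R cells, against 9.46 and 10.2 untreated, and 5.91 and 5.47 FPKM in treated parental cells, against 9.41 and 8.39 untreated. It fell by 0.47 ± 0.09 (adjusted p = 0.00288) and 0.56 ± 0.09 (adjusted p = 0.000807) on the log2 scale in P/R and parental cells.

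UBE2L6 moved little but evenly, at 65.3 and 66.4 FPKM in treated P/R cells, against 80.7 and 82.3 untreated, and at 75.4 and 74.6 FPKM in treated parental cells, against 91.1 and 89.4 untreated. The libraries of 1 condition differed by far less than the gap between conditions, and the log2 difference was -0.30 ± 0.04 in P/R cells (limma, adjusted p = 0.000559) and -0.26 ± 0.04 in parental cells (adjusted p = 0.001). TRIM25, known for activating the sensor RIG-I, rose by 0.39 ± 0.07 (adjusted p = 0.00168) and 0.34 ± 0.07 (adjusted p = 0.00281). ISG15 averaged 42.1 FPKM in treated P/R cells, against 33.7 untreated, and 37.5 FPKM in treated parental cells, against 31.6 untreated, log2 differences of 0.31 (adjusted p = 0.00784) and 0.24 (adjusted p = 0.0214). The ISG15 call was lost in P/R cells without treated library 2, at adjusted p = 0.0529, and in parental cells without untreated library 2 or either treated library, at 0.0577 to 0.135. Neither TRIM21, a cytosolic antibody receptor, nor HERC6 passed in either line.

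STAT2, the signal factor of ISGF3 among the members, rose by the same amount in both lines. It held 32.7 and 33.3 FPKM in P/R cells under OTX015, against 23.5 and 21.6 untreated, and 33.4 and 32.7 FPKM in parental cells under OTX015, against 22.4 and 22.6 untreated. The 4 treated libraries lay within 1 narrow band and the 4 untreated ones within another, with a log2 difference of 0.53 ± 0.06 in P/R cells (limma, adjusted p = 0.000153) and 0.53 ± 0.06 in parental cells (adjusted p = 0.000109). IFI6, a membrane protein that protects cells from death, rose too. Its libraries held 34.3 and 34.9 FPKM in treated P/R cells, against 24.3 and 21.7 untreated, and 53.1 and 52.0 FPKM in treated parental cells, against 38.2 and 36.2 untreated. Treated P/R cells remained below untreated parental cells, and the log2 difference was 0.57 ± 0.07 in P/R cells (adjusted p = 0.000157) and 0.49 ± 0.07 in parental cells (adjusted p = 0.000293).

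**Figure D3:**
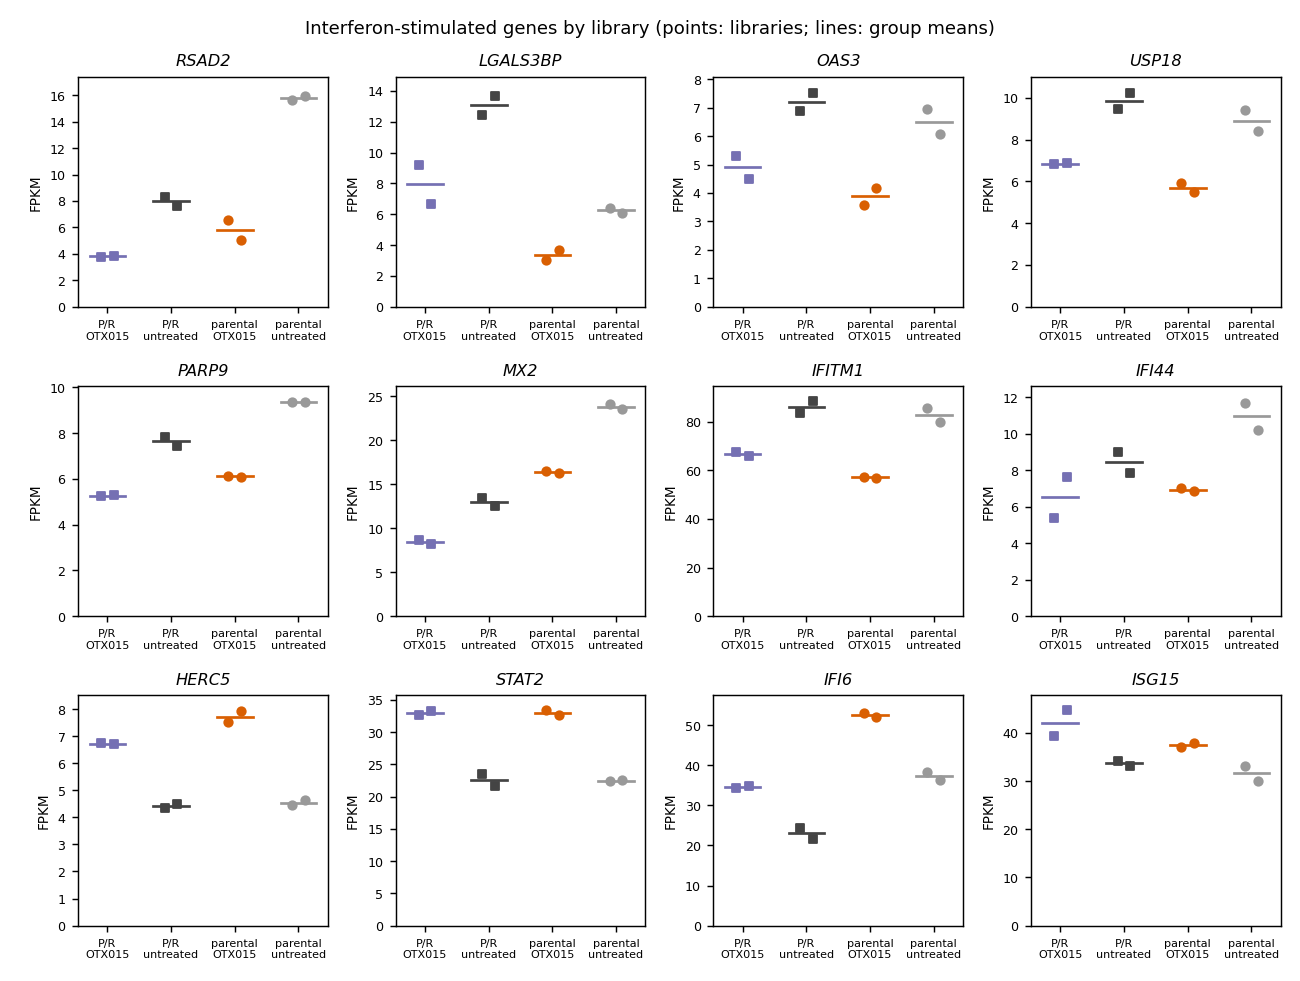
FPKM in each of the 8 libraries for 12 members, points for libraries and lines for group means, with P/R cells left of parental cells and OTX015 left of untreated. STAT2, HERC5 and IFI6 are higher in every treated library than in the untreated libraries of the same line, and RSAD2, MX2, OAS3, USP18, PARP9 and LGALS3BP are lower.

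PARP9, an ADP-ribosyltransferase, and DTX3L, the ubiquitin ligase it pairs with, fell together, while PARP14 did not pass. PARP9 held 5.26 and 5.28 FPKM in P/R cells under OTX015, against 7.85 and 7.44 untreated, and 6.15 and 6.09 FPKM in parental cells under OTX015, against 9.38 and 9.37 untreated. The treated libraries lay below the untreated ones in both lines, by a log2 difference of -0.46 ± 0.08 in P/R cells (limma, adjusted p = 0.00159) and -0.54 ± 0.08 in parental cells (adjusted p = 0.000515). DTX3L averaged 5.10 FPKM in treated P/R cells, against 6.35 untreated, and 5.09 FPKM in treated parental cells, against 7.13 untreated, which is -0.27 ± 0.08 (adjusted p = 0.028) and -0.42 ± 0.08 (adjusted p = 0.00283) on the log2 scale. The DTX3L call in P/R cells was lost without any 1 of the 4 P/R libraries, at adjusted p = 0.0619 to 0.132. The pair shares the core printed above, and no source used here states whether the authors' counting used strand, so reads near the shared start could have been counted for either gene.

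LGALS3BP, a secreted glycoprotein that binds galectins, held 9.17 and 6.69 FPKM in P/R cells under OTX015, against 12.5 and 13.7 untreated, and 3.02 and 3.66 FPKM in parental cells under OTX015, against 6.40 and 6.11 untreated. It fell in both lines, by 0.67 ± 0.14 on the log2 scale in P/R cells (limma, adjusted p = 0.00363) and by 0.75 ± 0.14 in parental cells (adjusted p = 0.00166), and treated P/R cells still lay above untreated parental cells. PLSCR1, a phospholipid scramblase, fell by 0.49 ± 0.07 (adjusted p = 0.000423) and 0.29 ± 0.07 (adjusted p = 0.00617) in the same order. IFI44 held 5.38 and 7.66 FPKM in treated P/R cells, against 9.02 and 7.88 untreated, and 7.01 and 6.88 FPKM in treated parental cells, against 11.7 and 10.2 untreated. The 2 treated P/R libraries were far apart, and IFI44 passed in parental cells, at -0.59 ± 0.14 (adjusted p = 0.00697), and not in P/R cells, at -0.34 ± 0.14 (adjusted p = 0.0746).

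The RNA sensors of the RIG-I family that were tested, PKR and ADAR did not pass in either line, unlike OAS3. DDX58 (RIG-I), IFIH1 (MDA5), the kinase EIF2AK2 (PKR) and the RNA editor ADAR made up 4 of the 10 members that passed nowhere under the drug, and the others were IFI27, IFI35, TRIM21, SAMD9, PARP14 and HERC6. Of these, IFI27 reached 1 FPKM in treated libraries only, so it passed the filter only through the groups where it was higher. ADAR, the best expressed of the 4, held 51.3 and 47.6 FPKM in P/R cells under OTX015, against 51.9 and 49.5 untreated, and 47.8 and 49.4 FPKM in parental cells under OTX015, against 49.7 and 51.5 untreated. Its log2 difference was -0.04 ± 0.06 in P/R cells (limma, adjusted p = 0.639) and -0.06 ± 0.06 in parental cells (adjusted p = 0.427). EIF2AK2 was uneven, with 5.15 and 8.62 FPKM in untreated parental cells, and its SE of 0.17 leaves room for changes that could not have been detected. SAMD9, a growth-restraining antiviral factor, held 1.74 and 1.95 FPKM in treated P/R cells, against 1.79 and 1.75 untreated, and 1.94 and 2.02 FPKM in treated parental cells, against 1.82 and 2.16 untreated, so its groups overlapped.

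Cores and calls can be set side by side as a description. In P/R cells the core was present in 9 of 10 matched members that fell, 3 of 5 that rose and 7 of 11 that did not pass. In parental cells it was present in 10 of 11 that fell, 3 of 5 that rose and 6 of 10 that did not pass. UBE2L6 was the member that fell without a core in its window, and STAT2 and TRIM25 were those that rose without one.

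No member passed a test of the difference in response between the lines. The difference in response, P/R minus parental, passed for 0 of 29 members (limma, adjusted p under 0.05), against 9 of 11255 genes, or 0.08%, and 1 member reached an unadjusted p under 0.05. RSAD2 had the largest difference of the members, 0.41 ± 0.16 (adjusted p = 0.445), with falls of 0.90 in P/R cells and 1.31 in parental cells. With 2 libraries per group a difference of this size was not detectable here, which does not show that the responses were alike.

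A few members differed between the lines with and without the drug, at a called share only somewhat above that of all genes. Under OTX015, 4 of the 29 tested members were higher and 5 lower in P/R than in parental cells, and 20 did not pass, a called share of 31.0% against 24.4% of all genes. Untreated, 3 were higher and 6 lower, and 20 did not pass, again 31.0%, against 23.5% of all genes. By direction, 12.7% of all genes were higher and 11.7% lower in P/R cells under OTX015, and 11.7% and 11.9% untreated. A log2 difference of at least 1 was reached by LGALS3BP under OTX015, where 1.71% of all genes passed with one, and by no member untreated, where 1.78% did. The median log2 difference over the members was -0.07 under OTX015 and -0.04 untreated, against -0.01 over all genes in each case. Groups did not overlap for 18 members under OTX015 (62.1%, against 60.8% of all genes) and for 16 untreated (55.2%, against 62.3%). LGALS3BP, IFITM2 and IFITM3 were higher and IFI6, IFI35, MX2, RSAD2 and UBE2L6 lower in P/R cells in both conditions, IFITM1 passed as higher under OTX015, and PARP9 as lower untreated. The lymphocyte marker sum given above was also lower in P/R cells in both conditions, and lower under OTX015 in both lines. The line comparisons and the drug comparisons share libraries, so they are not independent of each other.

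**Figure D4:**
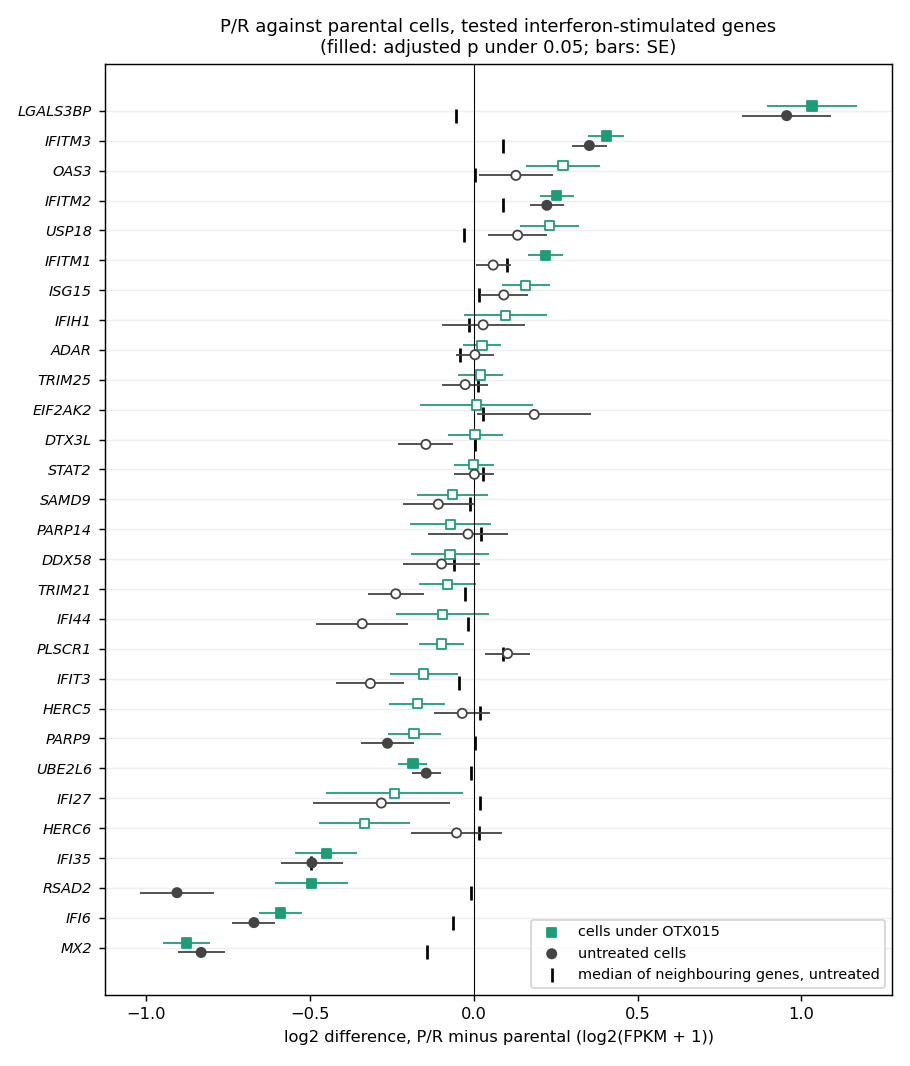
Log2 difference, P/R minus parental, of the 29 tested members, with squares under OTX015, circles untreated, bars for 1 SE, filled points where the adjusted p is under 0.05, and ticks for the median of the tested genes next to each member in untreated cells. LGALS3BP stands at 1.03 under OTX015 and 0.95 untreated, MX2 at -0.88 and -0.83, and the tick beside IFI35 at -0.50.

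LGALS3BP showed the largest line difference of the members. Means were 7.93 FPKM in P/R cells and 3.34 in parental cells under OTX015, and 13.1 and 6.25 untreated, so P/R cells held 2.38 and 2.09 times the parental level. The log2 difference was 1.03 ± 0.14 under OTX015 (limma, adjusted p = 0.000546) and 0.95 ± 0.14 untreated (adjusted p = 0.000942). MX2 was the reverse, with means of 8.43 FPKM in P/R cells and 16.3 in parental cells under OTX015, and 12.9 and 23.8 untreated. Its log2 difference was -0.88 ± 0.07 under OTX015 (adjusted p = 3.16e-05) and -0.83 ± 0.07 untreated (adjusted p = 4.84e-05).

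RSAD2 in P/R cells was at 0.654 times the parental level under OTX015 and 0.504 times untreated. The log2 difference was -0.50 ± 0.11 under OTX015 (limma, adjusted p = 0.0106) and -0.91 ± 0.11 untreated (adjusted p = 0.000415), and the call under OTX015 was lost without treated library 1 of either line, at adjusted p = 0.0519 to 0.0747. IFI6 was lower in P/R cells by -0.59 ± 0.07 under OTX015 (adjusted p = 0.000204) and -0.67 ± 0.07 untreated (adjusted p = 0.000105). IFI35 averaged 7.03 FPKM in P/R cells and 9.96 in parental cells under OTX015, and 7.18 and 10.5 untreated, a log2 difference of -0.45 ± 0.09 (adjusted p = 0.00746) and -0.49 ± 0.09 (adjusted p = 0.00466).

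The IFITM genes stood higher in P/R cells. IFITM3 averaged 73.3 FPKM in P/R cells and 55.2 in parental cells under OTX015, and 81.9 and 63.9 untreated, log2 differences of 0.40 ± 0.05 (limma, adjusted p = 0.000617) and 0.35 ± 0.05 (adjusted p = 0.00148). IFITM2 differed by 0.25 under OTX015 (adjusted p = 0.00622) and by 0.22 untreated (adjusted p = 0.0122), the untreated call being lost without untreated library 2 of either line, at adjusted p = 0.0849 to 0.11. IFITM1 differed by 0.22 under OTX015 (adjusted p = 0.0152), lost without treated parental library 1 or 2 or treated P/R library 1, at 0.0657 to 0.0704, and by 0.06 untreated, which did not pass (adjusted p = 0.474).

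The line differences of UBE2L6 and PARP9 that passed were fragile. UBE2L6 was lower in P/R cells by -0.19 ± 0.04 under OTX015 (limma, adjusted p = 0.0139) and -0.15 ± 0.04 untreated (adjusted p = 0.0411). The call under OTX015 was lost without treated parental library 1 or 2 or treated P/R library 1, at adjusted p = 0.0544 to 0.0738, and the untreated call without any 1 untreated library or either treated parental library, at 0.0596 to 0.214. PARP9 untreated, at -0.26 ± 0.08 (adjusted p = 0.043), was lost without any 1 library except treated P/R library 1, at 0.0502 to 0.205.

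Values of the genes next to a member were compared with its line difference. The 20 tested genes on either side of IFI35 on chromosome 17 had a median log2 difference of -0.52 under OTX015 and -0.50 untreated, as large as that of IFI35 itself. The neighbours of MX2 on chromosome 21 were at -0.14 in both conditions, a small part of the difference of MX2. For LGALS3BP, also on chromosome 17, they were at -0.04 and -0.06, for IFI6 at -0.06 and -0.06, for RSAD2 at -0.05 and -0.01, and for IFITM3 at 0.09 and 0.09. The ordering by neighbours came from an annotation of another build, so no positions are given, and the part of region or copy number in these differences was not tested.

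Upstream of the members, the ligands were all but absent. Of 21 interferon genes, 19 were listed at 0 in every library, and the other 2, IFNL2 and IFNL3, did not exceed 0.115 FPKM. The receptor and signalling genes were expressed, with 19 of 20 tested, STAT2 and USP18 of the members among them. In P/R cells 8 rose and 4 fell, and in parental cells 9 rose and 4 fell. The called shares were 63.2% and 68.4%, against 44.3% and 50.4% of all genes. The shares that rose were 42.1% and 47.4%, against 22.5% and 25.7% of all genes. Those that fell were 21.1% in either line, against 21.8% and 24.7%. Between lines 1 was higher and 6 lower in P/R cells under OTX015, a called share of 36.8% against 24.4% of all genes. Untreated, 0 were higher and 2 lower, or 10.5% against 23.5% of all genes, and the unadjusted count was 1 higher and 3 lower.

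IRF9 did not pass under the drug in either line. IRF9, the subunit that gives ISGF3 much of its DNA specificity, held 10.3 and 10.2 FPKM in treated P/R cells, against 11.4 and 9.76 untreated, and 14.3 and 14.0 FPKM in treated parental cells, against 17.7 and 15.8 untreated. Both treated parental libraries lay below both untreated ones, while treated and untreated P/R libraries overlapped. A comparison that did not pass does not show an unchanged level. Between lines IRF9 passed in both conditions, at -0.43 ± 0.09 under OTX015 (limma, adjusted p = 0.00783) and -0.62 ± 0.09 untreated (adjusted p = 0.00106), P/R minus parental. STAT2 was thus raised by the drug in both lines, and IRF9 was lower in P/R cells.

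The kinase JAK1 averaged 88.2 FPKM in P/R cells under OTX015, against 56.8 untreated, and 86.7 FPKM in parental cells under OTX015, against 49.2 untreated, rises of 0.62 (limma, adjusted p = 0.000114) and 0.81 (adjusted p = 1.93e-05) on the log2 scale. SOCS1, an inhibitor of JAK kinases, rose by 0.52 (adjusted p = 0.00842) and 0.73 (adjusted p = 0.00113), the P/R call being lost without untreated P/R library 2 or treated P/R library 1, at adjusted p = 0.0502 to 0.0593. PTPN6, a phosphatase that dampens cytokine signalling, fell most of the list, to 50.6 FPKM in treated P/R cells, against 115 untreated, and to 34.5 FPKM in treated parental cells, against 105 untreated. Its log2 difference was -1.18 ± 0.08 in P/R cells (adjusted p = 1.18e-05) and -1.58 ± 0.08 in parental cells (adjusted p = 1.53e-06). IFNGR2, a chain of the interferon-gamma receptor, fell by 0.64 (adjusted p = 0.00128) and 0.86 (adjusted p = 0.000183). The type I receptor chain IFNAR1 averaged 18.1 FPKM in treated P/R cells, against 25.8 untreated, and 24.2 FPKM in treated parental cells, against 24.8 untreated. The other chain, IFNAR2, averaged 36.3 against 38.3 and 38.5 against 37.1 in the same order. The difference in response between lines passed for 0 of the 19 tested genes of this list, against 0.08% of all genes. JAK1 and SOCS1 thus rose and PTPN6 and IFNGR2 fell, genes named for the size of their differences. Others of their kind went the other way. The phosphatase PTPN1 averaged 26.7 FPKM in treated P/R cells, against 19.9 untreated, and 27.5 in treated parental cells, against 20.2 untreated. In the same order, the receptor chain IL10RB averaged 18.8 against 13.6 and 18.8 against 14.9. SOCS3 averaged 20.45 FPKM in treated parental cells, against 24.7 untreated. In P/R cells its gap was small, at 14.8 and 16.1 FPKM treated, against 16.3 and 16.4 untreated. No test is given here for PTPN1, IL10RB or SOCS3.

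**Figure D5:**
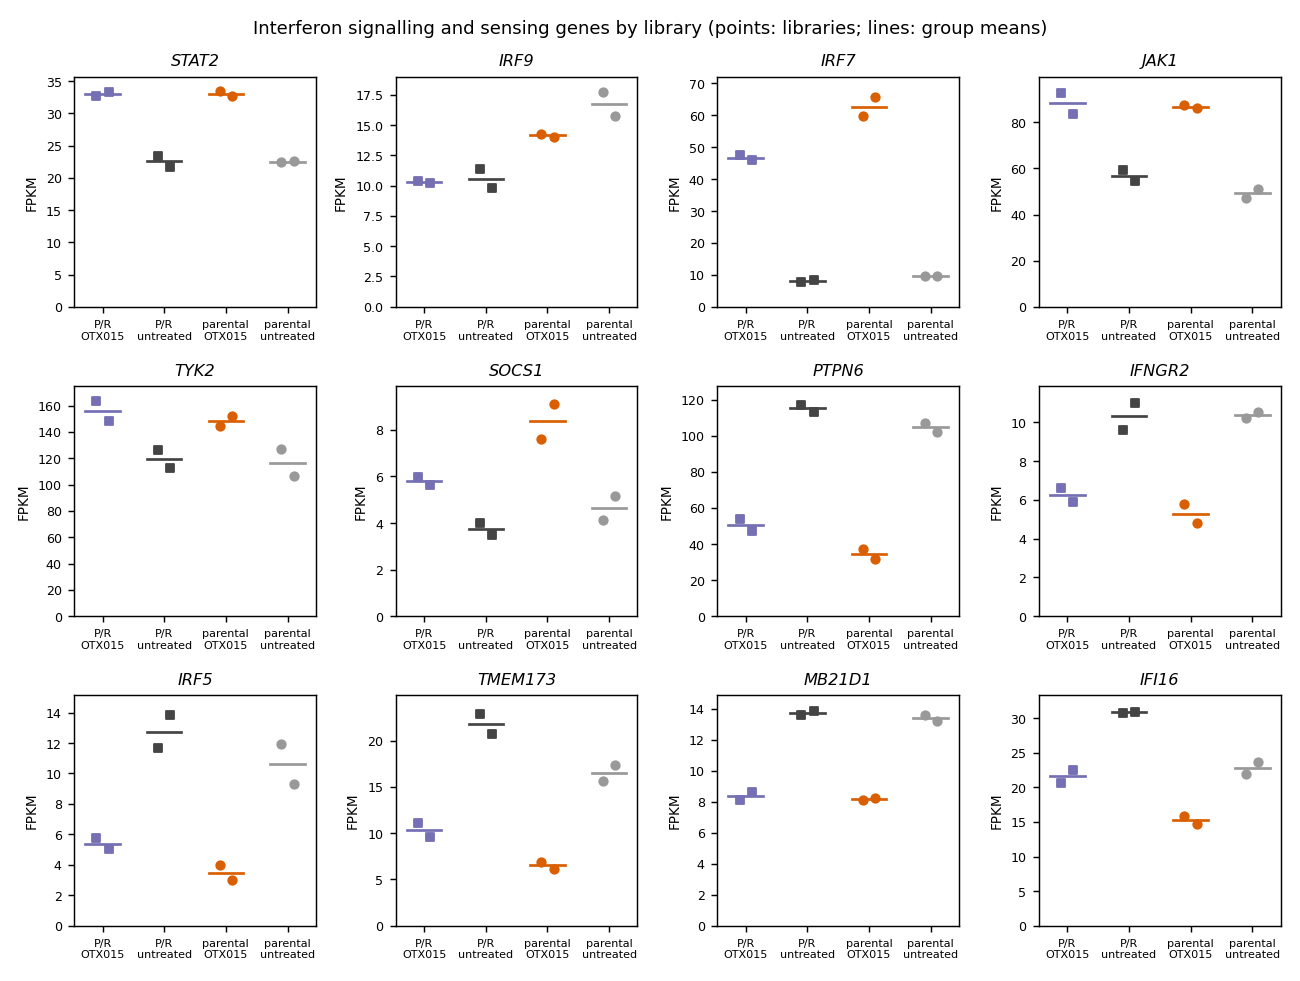
FPKM in each library for 12 signalling and sensing genes, points for libraries and lines for group means, with P/R cells left of parental cells and OTX015 left of untreated. IRF7 averages 46.7 FPKM in treated P/R cells, against 8.12 untreated, and 62.7 FPKM in treated parental cells, against 9.64 untreated, while PTPN6, IFNGR2, IRF5, TMEM173, MB21D1 and IFI16 are lower in every treated library than in the untreated libraries of the same line.

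Of the genes that sense nucleic acids and drive interferon production, 17 were tested, DDX58 and IFIH1 included. In P/R cells 1 rose, 8 fell and 8 did not pass, and in parental cells 1 rose, 9 fell and 7 did not pass. The share that fell was 47.1% in P/R cells, against 21.8% of all genes, and 52.9% in parental cells, against 24.7%. The gene that rose was IRF7, which drives interferon-alpha transcription. It reached 47.5 and 45.95 FPKM in P/R cells under OTX015, against 7.70 and 8.54 untreated, and 59.7 and 65.8 FPKM in parental cells under OTX015, against 9.68 and 9.60 untreated. The log2 difference was 2.39 ± 0.07 in P/R cells (limma, adjusted p = 1.13e-07) and 2.58 ± 0.07 in parental cells (adjusted p = 6.37e-08), well past that of any member. IRF5, a related factor, fell by 1.11 ± 0.15 (adjusted p = 0.000369) and 1.37 ± 0.15 (adjusted p = 7.78e-05). TMEM173 (STING), the adaptor of cytosolic DNA sensing, averaged 10.3 FPKM in treated P/R cells, against 21.8 untreated, and 6.52 FPKM in treated parental cells, against 16.5 untreated, falls of 1.01 and 1.22 (adjusted p = 6.54e-05 and 1.65e-05). MB21D1 (cGAS), the DNA sensor upstream of it, fell by 0.65 in both lines (adjusted p = 0.000148 in P/R cells and 0.000104 in parental cells). IFI16, another DNA sensor, fell by 0.50 and 0.55 (adjusted p = 0.000579 and 0.000262).

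Of 24 tested interferon-inducible genes outside the members, 4 rose and 5 fell in P/R cells, and 3 rose and 10 fell in parental cells. The called shares in either direction, 37.5% in P/R cells and 54.2% in parental cells, were near the 44.3% and 50.4% of all genes. The shares that fell were 20.8% in P/R cells and 41.7% in parental cells, against 21.8% and 24.7% of all genes. Those that rose were 16.7% and 12.5%, against 22.5% and 25.7% of all genes. EPSTI1 averaged 2.44 FPKM in treated P/R cells, against 4.18 untreated, and 2.29 FPKM in treated parental cells, against 6.49 untreated, log2 differences of -0.61 ± 0.18 (limma, adjusted p = 0.021) and -1.18 ± 0.18 (adjusted p = 0.000572). Its P/R call was lost without untreated P/R library 2 or treated P/R library 1, at adjusted p = 0.105 to 0.151. APOBEC3B, a cytidine deaminase, fell by 0.43 (adjusted p = 0.000328) and 0.58 (adjusted p = 4.24e-05) and was higher in P/R than in parental cells, by 0.94 ± 0.06 under OTX015 (adjusted p = 5.48e-06) and 0.79 ± 0.06 untreated (adjusted p = 1.62e-05). PARP12 was at -0.26 in P/R cells, which did not pass (adjusted p = 0.0529), and fell by 0.70 in parental cells (adjusted p = 0.000363). SAMHD1, which hydrolyses deoxynucleotides, and the helicase HELZ2 are named after their values were seen, as genes that rose. SAMHD1 rose by 0.71 in P/R cells (adjusted p = 0.000854) and 0.74 in parental cells (adjusted p = 0.000519). HELZ2 averaged 1.76 FPKM in treated P/R cells, against 0.407 untreated, and 1.56 FPKM in treated parental cells, against 0.200 untreated. It reached 1 FPKM in treated libraries only, so it passed the filter only through the groups where it was high. HELZ2 is counted above among the genes that rose, but its test is not given as support. TRIM22 of the same list reached 1 FPKM in untreated libraries only, so it too passed the filter only through the groups where it was high. It averaged 0.669 FPKM in treated P/R cells, against 0.998 untreated, and 0.677 FPKM in treated parental cells, against 1.93 untreated. The test of TRIM22 is not given as support either.

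Of 7 tested genes that respond mainly to interferon-gamma, 1 rose and 3 fell in P/R cells, and 1 rose and 6 fell in parental cells, the one that rose in both being SOCS1. Of all genes, 22.5% rose and 21.8% fell in P/R cells, and 25.7% rose and 24.7% fell in parental cells, and with 7 genes nothing is read from the shares. WARS, a tryptophanyl-tRNA synthetase, fell by 0.41 in P/R cells (limma, adjusted p = 0.000164) and 0.25 in parental cells (adjusted p = 0.00227). PSMB9, a subunit of the immunoproteasome, fell by 0.23 (adjusted p = 0.004) and 0.31 (adjusted p = 0.00064). TAP1, a peptide transporter for antigen presentation, was at -0.14 in P/R cells, which did not pass (adjusted p = 0.0783), and fell by 0.43 in parental cells (adjusted p = 0.000281).

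As a description, the level of the middle-ranked member was read in each library, and it was not the same gene in every library. The median log2(FPKM + 1) over the tested members was 2.99 and 2.98 in P/R cells under OTX015, 3.32 and 3.15 in untreated P/R cells, 3.00 and 3.03 in parental cells under OTX015, and 3.54 and 3.49 in untreated parental cells. The 4 treated libraries lay together below all 4 untreated ones, and untreated P/R cells below untreated parental cells. Because the gene at the middle rank changes, these gaps are not the change of the members themselves. The median of the members' own log2 differences was smaller. It was -0.14 for OTX015 in P/R cells, -0.09 for OTX015 in parental cells and -0.04 for P/R against parental cells untreated.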

How the data were processed

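RNA from 8 libraries, 2 per group, was sequenced. The authors deposited 1 table of FPKM values per gene, and the submitters' processing notes name TopHat2 2.0, Cufflinks 2.0 and the build hg19. The role of each tool, the annotation and the use of strand were not stated in any source used here. The sorted values of the 8 libraries differed by at most 0.136%, so all libraries share 1 distribution: a shift in total RNA, or of most genes in 1 direction, cannot appear in these values, and each difference is relative to the other genes. Read depth is unknown, so counting intervals could not be given, and precision rests on the 2 libraries per group.

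A gene was kept when 2 or more of the 8 libraries reached 1 FPKM, which left 11255 of 19718. Values were analysed as log2(FPKM + 1), and a difference on this scale understates the change of low genes. limma 3.58.1 in R 4.3.3 fitted 4 group means over all 8 libraries, with 5 contrasts, a variance trend, two-sided tests and Benjamini-Hochberg adjustment over all kept genes at 0.05. An exact permutation test of 2 against 2 libraries cannot go below p = 0.333, so the calls rest on a spread shared across genes. On simulated data for OTX015 against untreated parental cells (11028 genes, of which 200 were changed), the fit recovered 100% of log2 changes of 1 and 97% of those of 0.5, with 10 false calls. The changed genes were drawn only from those with a mean level above 5 FPKM, and each gene had the spread usual for its level. The recovery therefore does not cover lower members or genes with uneven libraries, and far fewer genes were changed than were called in the real data.

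Members and gene lists were chosen with earlier results of these data known. A member was given in every library if it reached a group mean of 5 FPKM and passed a contrast with a log2 difference of at least 0.5, or had the highest level of its role group. From each pathway list, IRF9, IRF7 and up to 4 genes with the largest passing differences at 5 FPKM or more were named. Of these lists, 1 gene is not reported here. Alternatives were pseudocounts of 0.1 and 5 FPKM, testing all genes, requiring an overall mean of 5 FPKM, centring libraries on their medians, no variance trend, fitting each pair of groups alone, blocking on replicate number, a log2 difference of at least 1, and each library left out. Neighbours were the 20 tested genes on each side by annotation order, fewer where the chromosome ends.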

Additional observations from a re-analysis of the deposited data

How the results depend on the processing

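No call of a member or named gene changed direction under any alternative run. With a mean of at least 5 FPKM, which leaves 22 members tested, the members' median log2 difference became -0.21 for OTX015 in P/R cells, -0.24 for OTX015 in parental cells and 0.0016 for P/R against parental cells under OTX015. Requiring a log2 difference of at least 1 left 0 members higher and 0 lower for OTX015 in P/R cells, 0 higher and 1 lower (RSAD2) for OTX015 in parental cells, 1 higher (LGALS3BP) and 0 lower for P/R against parental cells under OTX015, and 0 and 0 untreated. Leaving out 1 library at a time, the median ranged from -0.204 to -0.0919 for OTX015 in parental cells, from -0.0961 to -0.0176 for P/R against parental cells under OTX015 and from -0.131 to -0.00219 untreated. The members that fell under the drug numbered 8 to 12 in P/R cells and 12 to 14 in parental cells, and those that rose 4 to 5 in either line. The members lower in P/R than in parental cells numbered 3 to 5 under OTX015 and 4 to 7 untreated. The count under OTX015 was 3 without treated parental library 1 or without treated P/R library 1. The pseudocounts and median centring lost at most 1 of 98 named calls, and omitting the filter or the variance trend lost 8 each. The cause of these losses was not tested.

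Libraries with the same replicate number share only that number, since the correlation of their deviations from the group means was -0.12 to 0.104. With the replicate block, 12 members fell and 5 rose in P/R cells, 14 fell and 5 rose in parental cells, and 5 were lower and 4 higher in P/R cells under OTX015. Untreated, 4 were lower and 3 higher in P/R cells, against 6 and 3 without the block. The block kept 94 of 98 named calls and lost those of IFITM3 under the drug in P/R cells (adjusted p = 0.0543), PARP9 and UBE2L6 between untreated lines (0.0595 and 0.0624) and TAP1 between treated lines (0.0516), so its 12 that fell in P/R cells are not the same 12. A crossed pairing, chosen after seeing the data, gave 5 lower and 4 higher in P/R cells under OTX015. The fit of only the groups compared was not run for the difference in response, which uses all 4 groups. FPKM without counts leaves the low members without a limit of detection.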
